A study of Mus musculus with 24 samples.

Results

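The clustered protocadherin genes were examined in maps of accessible chromatin from mouse blood cells. They were taken as the protein-coding genes of GENCODE vM21 (mm10) on chromosome 18 whose symbols start with Pcdha, Pcdhb or Pcdhg, which gave 57 of 21938 protein-coding genes. The 14 Pcdha genes lie at 36930184 to 37187661, the 22 Pcdhb genes at 37264938 to 37524479 and the 21 Pcdhg genes at 37661793 to 37841873, all on the plus strand. The region examined ran 100 kb past each end, from 36830184 to 37941873. The symbol Pcdha11 belongs to 2 of the genes (ENSMUSG00000007440 and ENSMUSG00000102206), which were kept apart. Pcdhgb8 (37761801 to 37841870) is annotated as a polymorphic pseudogene and is no member.

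Clustered protocadherins are cell-surface adhesion proteins of neurons, in which each cell uses its own combination of isoforms as an identity that lets its branches recognise and avoid each other. In the Pcdha and Pcdhg clusters each gene has its own promoter and a large variable first exon, which is spliced to constant exons shared by the whole cluster, whereas the Pcdhb genes are mostly single-exon genes. Most promoters are chosen by chance in each neuron through looping by CTCF and cohesin and are otherwise silenced by DNA methylation, while the C-type genes at the ends of the Pcdha and Pcdhg clusters are used more uniformly. These genes are not known for a role in blood cell formation.

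ATAC-seq, in which a transposase cuts open chromatin, was made for 12 cell populations with 2 libraries each, 24 in all. Adult C57BL6 bone marrow gave LSK cells (Lin-, Sca1+, cKit+), common myeloid progenitors (CMP), megakaryocyte erythroid progenitors (MEP), granulocyte macrophage progenitors (GMP), colony forming unit erythroblasts (CFUE), erythroblasts (ERY), colony forming unit megakaryocytes (CFUMK) and megakaryocytes described as immature (iMK). Peripheral blood of adult C57BL6 mice gave monocytes (MON) and neutrophils (NEU). G1E is 1 erythroid-committed line that lacks GATA1, and G1E-ER4+E2 is 1 clone of it rescued by a fusion of GATA1 with an estrogen receptor that needs estradiol (E2). No strain or age is given for the lines. The study divided the primary types, on these same samples, into 6 with more accessible sites (LSK, CMP, GMP, MEP, CFUMK and iMK) and 4 with fewer (CFUE, ERY, MON and NEU), so that comparisons along this division below are not independent evidence for it.

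Each library is a list of between 52720 (G1E replicate 1) and 230877 (GMP replicate 1) called peaks, mostly 150 bp wide. Markers of the labelled types were read as accessible promoters, 3 or 4 per list. The 3 erythroid promoters (Klf1, Epor, Slc4a1) were all accessible in the MEP, CFUE, ERY, CFUMK and cell line libraries. In iMK 2 and 3 of the 3 megakaryocyte promoters (Pf4, Itga2b, Gp9) were accessible, against all 3 in every LSK, CMP, GMP and CFUMK library. All 4 monocyte promoters (Csf1r, Ccr2, Ly86, Cx3cr1) were accessible in iMK, as in CMP, GMP and CFUMK, against 3 in each MON library. In both NEU libraries all 3 B cell promoters (Cd79a, Pax5, Ms4a1) were accessible, against 0 to 2 elsewhere, beside 2 and 3 of the 4 granulocyte promoters (Mpo, Elane, S100a8, Cxcr2). All 4 granulocyte promoters were accessible in both GMP libraries. The megakaryocyte, monocyte and granulocyte lists thus do not set the labelled types apart. The part of other cells in the iMK and NEU values below was not tested. Of 4 neuronal genes (Snap25, Syt1, Rbfox3, Map2), GMP had 4 and 1 accessible promoters, CMP 3 and 1, MEP 3 and 2, LSK 2 and 2, and ERY and both lines 0. Among the other types iMK had 2 and 2, CFUMK 1 and 1, MON 1 and 1, and NEU and CFUE 1 and 0 each.

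The first question was at which of these promoters a peak is called at all. A promoter is called accessible where a peak of the library overlaps the 500 bp on either side of an annotated transcript start. In the mean of the libraries of a type, more of the 57 promoters were accessible in CFUMK, GMP, CMP and LSK than in MEP and iMK. In the erythroid, innate and cell line libraries few were. CFUMK had 35 and 25 accessible promoters, GMP 34 and 20, CMP 30 and 20 and LSK 27 and 12. MEP had 14 and 13 and iMK 9 and 8. NEU had 9 and 3, MON 4 and 5, CFUE 5 and 1, ERY 5 and 2, G1E 2 and 2, and G1E-ER4+E2 1 and 2. The libraries of the 6 types held 8 or more and those of the 4 types 9 or fewer, so that they overlapped only where NEU replicate 1 reached both iMK libraries. Over all protein-coding genes 42.5% to 68.8% of promoters were accessible per library, a much narrower range.

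As means over types, 20.6 ± 8.33 members were accessible in the 6 types (SD, n = 6, from 8.5 in iMK to 30 in CFUMK) and 4.25 ± 1.32 in the 4 types (SD, n = 4, from 3 in CFUE to 6 in NEU). The type means did not overlap, and the difference of 16.3 members exceeded the spread among type means (two-sided exact permutation test, p = 0.0143, where 0.00476 is the smallest p that 6 against 4 allows). It was 18.75 without iMK and 16.9 without NEU. The types were divided by their number of accessible sites on these same samples, so a higher count of members in the 6 types was in part set beforehand. The p-value is therefore no independent support for the difference. Libraries with more called peaks also had more accessible members. When each primary list was kept to its 84341 highest-scoring peaks, the means were 5.08 and 2.13 members, the difference was 2.96 (exact permutation test, two-sided, p = 0.0429), and the groups overlapped. At that number LSK had 9 and 5 members, CMP 6 and 7, CFUMK 6 and 6 and GMP 5 and 5. NEU followed with 6 and 3, above MEP with 4 and 4, and iMK had 2 and 2, ERY 1 and 2, MON 1 and 2 and CFUE 1 and 1.

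Lists of similar length still held different numbers of members. LSK replicate 2 (135309 peaks) had 12 accessible members and CFUE replicate 1 (133674 peaks) had 5. MEP replicate 2 (160409 peaks) had 13 and MON replicate 1 (163770 peaks) had 4. CFUMK replicate 2 (197175 peaks) had 25 and iMK replicate 2 (196339 peaks) had 8. These are single pairs and were not tested.

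**Figure D1:**
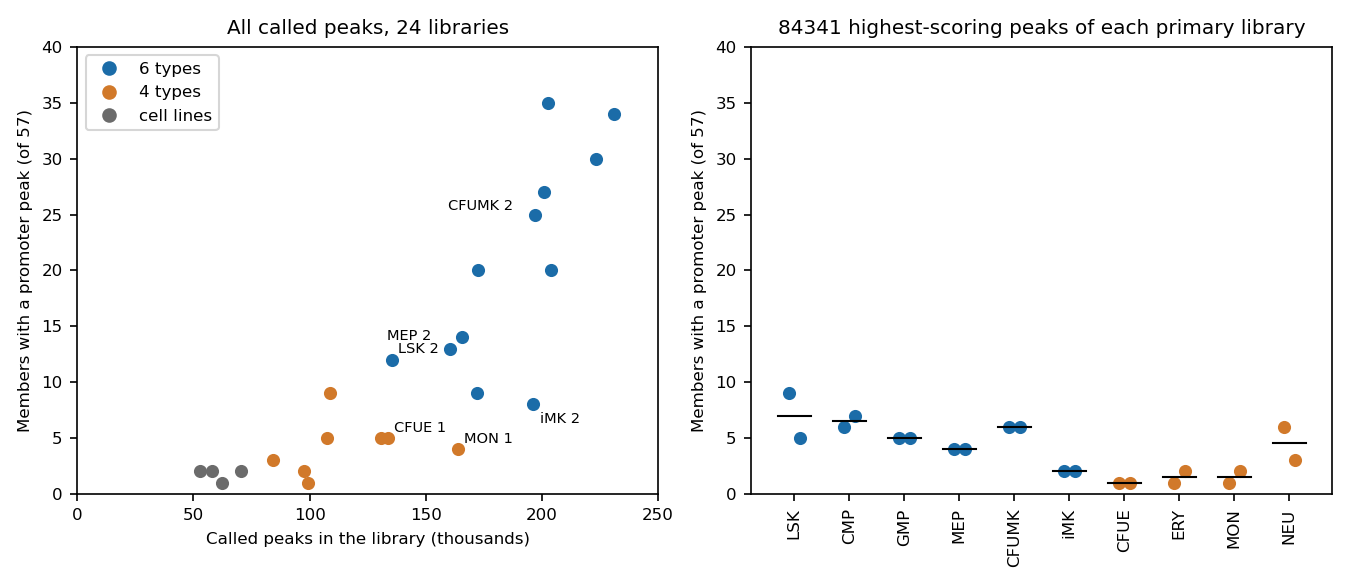
The left panel plots the number of members with an accessible promoter (of 57) against the called peaks of each of 24 libraries, coloured by group, and the right panel the number among the 84341 highest-scoring peaks of each primary library, with lines at the means of 2. Members rise with list length on the left, where iMK replicate 2 (8 members) lies far below CFUMK replicate 2 (25) at a similar length, and no library is above 9 on the right.

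Of the 57 members, 43 had an accessible promoter in at least 1 of the 24 libraries and 14 in none, and over all protein-coding genes 79.2% had one. All 43 were accessible in a library of the 6 types. In the 4 types 14 members were accessible at least once, where 70.5% of all genes were. The other 29 members were accessible in the 6 types and never in the 4 types, and among all genes this pattern was found in 8.57%. The 14 members seen in the 4 types were all among those seen in the 6 types, and 13 of them were Pcdhg genes. The exception was Pcdhb15, at CFUE replicate 1. Pcdhb3, Pcdhb17, Pcdhgb6 and Pcdhgc4 were the members accessible in a cell line. Pcdha genes were accessible in no library of the 4 types or of the lines.

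The replicates of a type shared a smaller part of these promoters than of promoters in general, which is given as a description. In LSK 12 of 27 members accessible in either library were accessible in both (44.4%), against 91.1% of all genes. The shares were 66.7% against 93.6% in CMP, 58.8% against 93.7% in GMP, 68.8% against 90.9% in MEP and 66.7% against 95.7% in CFUMK. In iMK they were 88.9% against 93.6%. The smallest were in ERY, with 1 of 6 members (16.7% against 89.1%), and in CFUE, with 1 of 5.

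**Figure D2:**
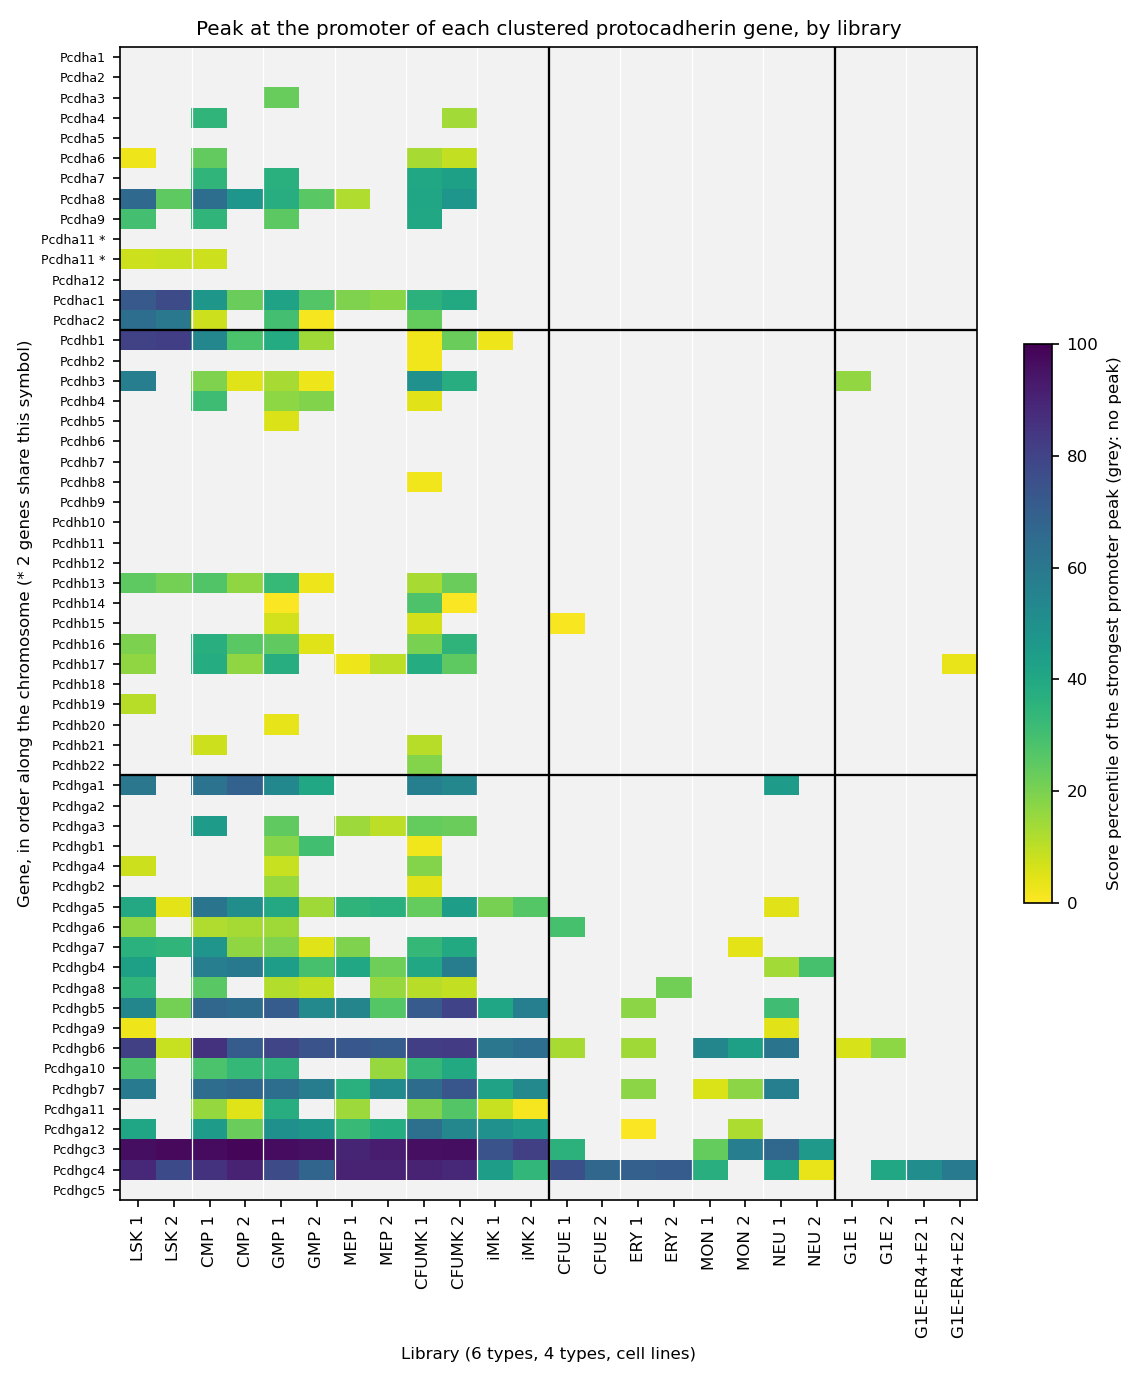
Each row is 1 of the 57 members in order along the chromosome and each column 1 of the 24 libraries, and the colour gives the score percentile of the strongest peak at the promoter within its own list (100 is the highest score), with grey where no peak was called. Pcdhgc3 and Pcdhgc4 form the darkest rows, the Pcdha block is grey in every library of the 4 types and the lines, and 14 rows are grey throughout.

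The strength of these peaks was read as the percentile of the best promoter peak among the scores of its own list, where 100 is the highest score. A percentile also depends on the length of its list, so comparisons of percentiles between libraries below carry that limit. The 288 accessible promoters of members had a median of 34.2, from 0.544 to 98.1, so most lay in the lower part of their lists. The median was 40.6 for Pcdhg, 29.7 for Pcdha and 16.9 for Pcdhb.

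The 5 C-type genes came first in the order of the members' roles. Pcdhgc4, a C-type isoform known for the survival of inhibitory neurons, was accessible in 22 of 24 libraries, more than any other member. Its score percentile was 88.9 and 77.3 in LSK, 85.5 and 90 in CMP, 77.0 and 67.4 in GMP, 89.9 and 90.4 in MEP, and 90.1 and 88.7 in CFUMK. In the erythroid types Pcdhgc4 reached 75.6 and 66.9 in CFUE, and ERY had 69.2 and 71, above the 44.2 and 34 of iMK. In the innate types it had 37.3 in MON replicate 1, no peak in MON replicate 2, and 40.9 and 3.25 in NEU. In the lines, which have the shortest lists, it had 40.1 in G1E replicate 2, no peak in G1E replicate 1, and 51.1 and 59.2 in G1E-ER4+E2. Pcdhgc4 was thus the member that kept a called promoter in both libraries of both erythroid types.

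Pcdhgc3, the first C-type gene of the Pcdhg cluster, had the highest scores and a different pattern. Its percentile was 96.3 and 97.4 in LSK, 97 and 98.1 in CMP, 96.6 and 95.3 in GMP, 95.8 and 96.4 in CFUMK, and 89.5 and 92.1 in MEP. It was 74.2 and 80.9 in iMK, 66.1 and 46.3 in NEU, and 23.7 and 57.3 in MON. Pcdhgc3 was called in CFUE replicate 1 alone (35.9) among the erythroid libraries, and in no ERY or cell line library. Pcdhgc3 lies next to Pcdhgc4 and ranked above it in both NEU libraries and MON replicate 2, and below it in the 4 erythroid libraries and MON replicate 1, an order that was not tested.

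Pcdhgc5, the last gene of the cluster, had no peak within 500 bp of a start in any library, although an element called in 8 types lies 5402 bp after its start, beyond its first exon. In the Pcdha cluster, Pcdhac1 was accessible in all 10 libraries of LSK, CMP, GMP, MEP and CFUMK and in none of the other 14. Its percentile was highest in LSK (72.1 and 76.7), lower in CMP (46.9 and 22.8), GMP (42.5 and 26.8) and CFUMK (35.7 and 39.2), and lowest in MEP (19.5 and 17.7). Pcdhac2, an isoform known from the spacing of serotonergic axons, was accessible in 6 libraries, with 63.7 and 59.9 in LSK, 29.7 and 1.37 in GMP, 7.53 in CMP replicate 1 and 23.6 in CFUMK replicate 1. LSK was highest for both genes, and both LSK values of each lay above all values of the other types.

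Of the remaining Pcdhg genes, Pcdhgb6 was accessible in 19 libraries (12 of the 6 types, 5 of the 4 types and 2 of the lines) with a median percentile of 63.3. Pcdhgb7 was accessible in 15, Pcdhgb5 in 14, Pcdhga5 and Pcdhga12 in 13 each, Pcdhgb4 in 11 and Pcdhga7 in 10. Of Pcdhgb5, both CFUMK values (71.3 and 80.0) lay above those of the other libraries (21.0 to 70.9 in the other libraries of the 6 types, 17.4 in ERY replicate 1 and 30.9 in NEU replicate 1). Pcdhga5 was accessible in all 12 libraries of the 6 types at 4.18 to 61.3 and in NEU replicate 1 at 4.56. Pcdhga1, the first gene of the cluster, was accessible in 8 libraries, of LSK (60.2, replicate 1), CMP (61.9 and 68.6), GMP (53.1 and 40.4), CFUMK (56.8 and 53.6) and NEU (44.7, replicate 1), but in no MEP or iMK library. In all, 5 members were accessible in each of the 12 libraries of the 6 types (Pcdhga5, Pcdhgb5, Pcdhgb6, Pcdhgc3 and Pcdhgc4), all of them Pcdhg genes, and no member was accessible in all 24 libraries.

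In the Pcdha cluster 9 of 14 genes were accessible anywhere and Pcdha1, the first of them, was not. Pcdha8 was accessible in 9 libraries, with 66 and 24.7 in LSK, 63.9 and 47.3 in CMP, 41.2 and 47.6 in CFUMK, 37.6 and 25.6 in GMP, and 11.7 in MEP replicate 1. With a window of 250 bp it was accessible in 1 library, because its peaks lie inside the first exon, as described below. In the Pcdhb cluster 15 of 22 genes were accessible anywhere, 6 of them in 1 library. Pcdhb1, which stands apart at the start of that cluster, was strongest in LSK (80.1 and 81.5), followed by CMP (53.9 and 28.3), GMP (38.3 and 14.4), CFUMK (2.21 and 22.8) and iMK replicate 1 (2.56). Pcdhb17 was accessible in 9 libraries at 2.39 to 38.2, and Pcdhb22, the last gene of its cluster, in CFUMK replicate 1 alone (18.6). As with Pcdhac1, both LSK values of Pcdhb1 lay above every other library.

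The second question was how the number of peaks across the region compares between types. The region held 104 and 71 peaks in LSK, 122 and 75 in GMP, 96 and 90 in CMP, 89 and 77 in CFUMK and 68 and 68 in MEP. It held 43 and 54 in iMK, 51 and 50 in MON, 33 and 24 in NEU, 38 and 29 in ERY, 40 and 27 in CFUE, 26 and 30 in G1E, and 32 and 39 in G1E-ER4+E2. Per 100000 called peaks the lines (50.5 in G1E and 53.4 in G1E-ER4+E2) were level with LSK (52.1), but only 7 to 10 peaks of a line library lay inside the clusters, and the others lay between Pcdhb and Pcdhg, where Taf7 is, and in the downstream flank, which holds Diaph1. The 6 types had 42.2 ± 8.84 (SD, n = 6) and the 4 types 31.3 ± 2.84 (SD, n = 4) peaks per 100000. The difference of 10.9 gave p = 0.0476 (exact permutation test, two-sided), the groups overlapped through iMK (26.2), and the call was lost without NEU (10.3, p = 0.107) and with equal numbers of peaks (4.69, p = 0.386).

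By cluster the patterns differed. In Pcdha, LSK had 12 peaks per 100000 called peaks, GMP 6.43, MON 4.82, CFUMK 4.74 and CMP 4.14. MEP had 2.74, NEU 1.84, iMK 0.509, ERY 0.464 and CFUE 0.374, and the lines had no peak. MON therefore had as many Pcdha peaks as CMP and CFUMK while no Pcdha promoter was accessible in it. In Pcdhb, LSK (9.52), GMP (7.66), CFUMK (4.99), MON (4.90) and CMP (4.60) were highest, and ERY had no peak in either library. In Pcdhg, MEP was highest (20.9), close to CMP (19.5) and GMP (19.3), then came LSK (17.1), CFUMK (17.0) and ERY (15.4), and the lowest were iMK (10.3), NEU (10.1) and MON (9.48).

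None of the 3 clusters alone passed the test after adjustment. The 6 and 4 types had 17.3 and 11.9 peaks per 100000 in Pcdhg (exact permutation test, two-sided, p = 0.0476, adjusted over 3 clusters 0.143), 5.09 and 1.87 in Pcdha (p = 0.176, adjusted 0.186) and 5.04 and 2.39 in Pcdhb (p = 0.186, adjusted 0.186). Pcdhg passed without iMK, where the difference was 6.89, and the Pcdhb difference turned to -0.148 with equal numbers of peaks.

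**Figure D3:**
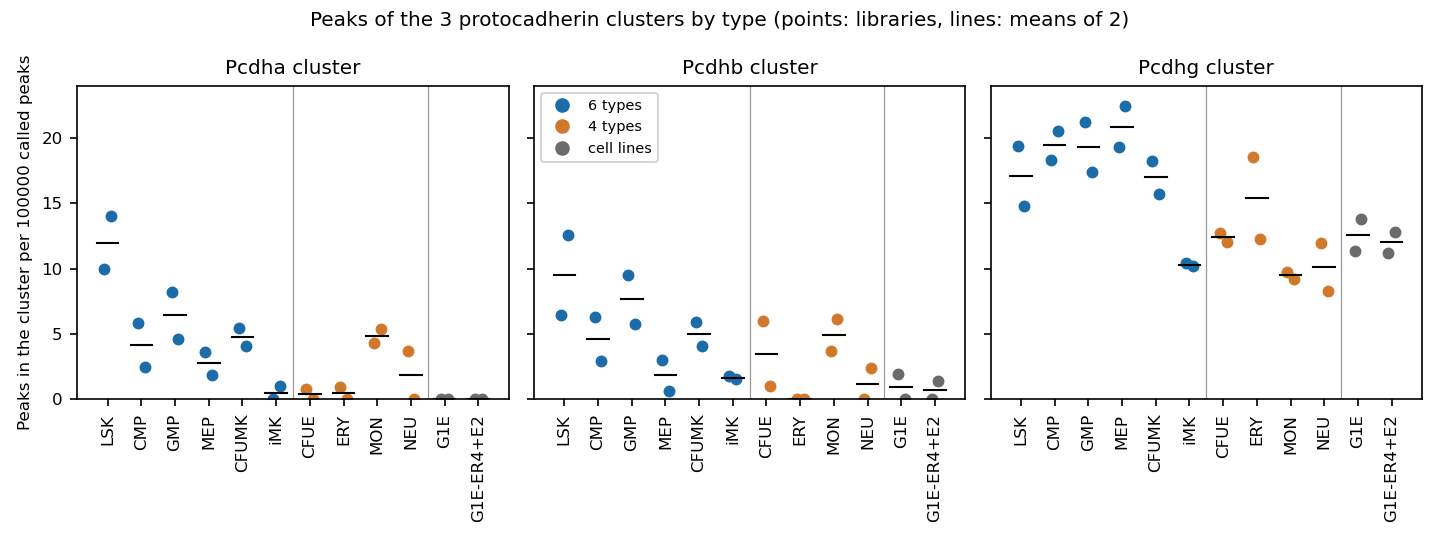
Each panel plots the peaks inside 1 cluster per 100000 called peaks of the library, with points for the 24 libraries, lines for the means of 2 and colours for the 6 types, the 4 types and the lines. LSK is highest in Pcdha (mean 12) and Pcdhb (9.52) and MEP in Pcdhg (20.9), and iMK lies with the 4 types in Pcdhg at 10.3.

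To follow sites through the lineages, peaks found in both libraries of a type were merged over types into elements, of which the region held 87 and the clusters 54, namely 7 in Pcdha, 12 in Pcdhb and 35 in Pcdhg. At 34 of the 54 there was a member's promoter and at 10 more a member's first exon. Of the 54, 39 (72.2%) were called in the 6 types and in none of the 4 types, against 50.8% of all elements of the genome. The 4 types together had 13, all in Pcdhg. An element called in all 12 types was not found among the 54, where 5.1% of all elements are, and 21 of the 54 were called in 1 type (38.9%, against 30.0% of all elements). Neither difference was tested, and over 54 elements neither is read as a trait of the clusters. The elements of the region called in all 12 types lay at the promoters of Taf7, a subunit of the general factor TFIID, and Diaph1, an actin-nucleating formin whose start lies beside the end of Hdac3, and at 3 more sites in the Diaph1 gene. Within the clusters the most widely called were the Pcdhgc4 promoter (37814743 to 37815556, 10 types, without MON and G1E), the start of Pcdhgb8 (37761494 to 37762110, 9 types), and, in 8 types each, the promoters of Pcdhgc3 and Pcdhgb6 and the element after the Pcdhgc5 start (37824947 to 37825164).

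The share of elements kept differed between the steps of the lineages. From LSK to CMP, 15 of 18 cluster elements were kept (83.3%), against 90.3% of all elements of the genome. From CMP, 23 of 30 were kept to GMP (76.7% against 74.4%), 25 of 30 to CFUMK (83.3% against 84.1%) and 17 of 30 to MEP (56.7% against 49.7%). From MEP to CFUMK 18 of 19 were kept (94.7% against 84.4%). From MEP to CFUE 2 of 19 were kept (10.5% against 41.7%), from CFUE to ERY 2 of 4 (50% against 80.4%), from CFUMK to iMK 10 of 33 (30.3% against 63.4%), from GMP to MON 3 of 33 (9.09% against 38.3%) and from GMP to NEU 4 of 33 (12.1% against 32.9%). From G1E to G1E-ER4+E2 4 of 5 were kept (80% against 73.5%). The shares in the 5 steps to CMP, GMP, MEP and CFUMK were above those of the genome in 3 and below them in 2, and the shares in the steps to CFUE, ERY, iMK, MON and NEU were all below. Elements of 1 cluster share libraries and are not independent, and the shares carry no test. The mean list length fell in each of the steps to CFUE, ERY, iMK, MON and NEU, for example from 163092 peaks in MEP to 116532 in CFUE. It also fell from CMP (213705) to MEP, GMP and CFUMK. Most accessible promoters of members lay in the lower part of their lists, as given above. The part of list length and peak strength in these shares was not tested.

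The position of the peaks was then read against the starts of the members, each taken at the first base of the gene. Within 3000 bp of a start there were 687 peaks of the 24 libraries, and since a peak that near to 2 starts counts at each, they gave 710 distances. Of these 461, each of a different peak, were within 500 bp, with a median of -13 bp. In each cluster the 100 bp just before the start held many peaks, 21 at 7 members in Pcdha, 31 at 11 members in Pcdhb and 141 at 16 members in Pcdhg. Each cluster also had a second group of peaks after the start at its own distance.

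In Pcdha the second group lay 500 to 600 bp after the start, with 26 peaks at 5 members in 10 libraries, all of the 6 types. In Pcdhb it lay 1700 to 2500 bp after the start, with 50 peaks at 17 members in 13 libraries, 35 in the 6 types and 15 in the 4 types. In Pcdhg it lay 200 to 300 bp after the start, with 68 peaks at 10 members in 22 libraries, 57 in the 6 types, 9 in the 4 types and 2 in the lines. The peaks just before the start were found in the 6 types alone in Pcdha and Pcdhb, whereas in Pcdhg 119 were in the 6 types, 20 in the 4 types and 2 in the lines. Reads of 30 bp can map to several copies of these related exons. The share of the 30 bp words of these windows found again elsewhere in the genome was 0% before the start and 10.7% at 500 to 600 bp in Pcdha, 0.727% and 26.3% in Pcdhb, and 4.38% and 13.6% in Pcdhg. The part of such reads in the peaks was not tested.

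**Figure D4:**
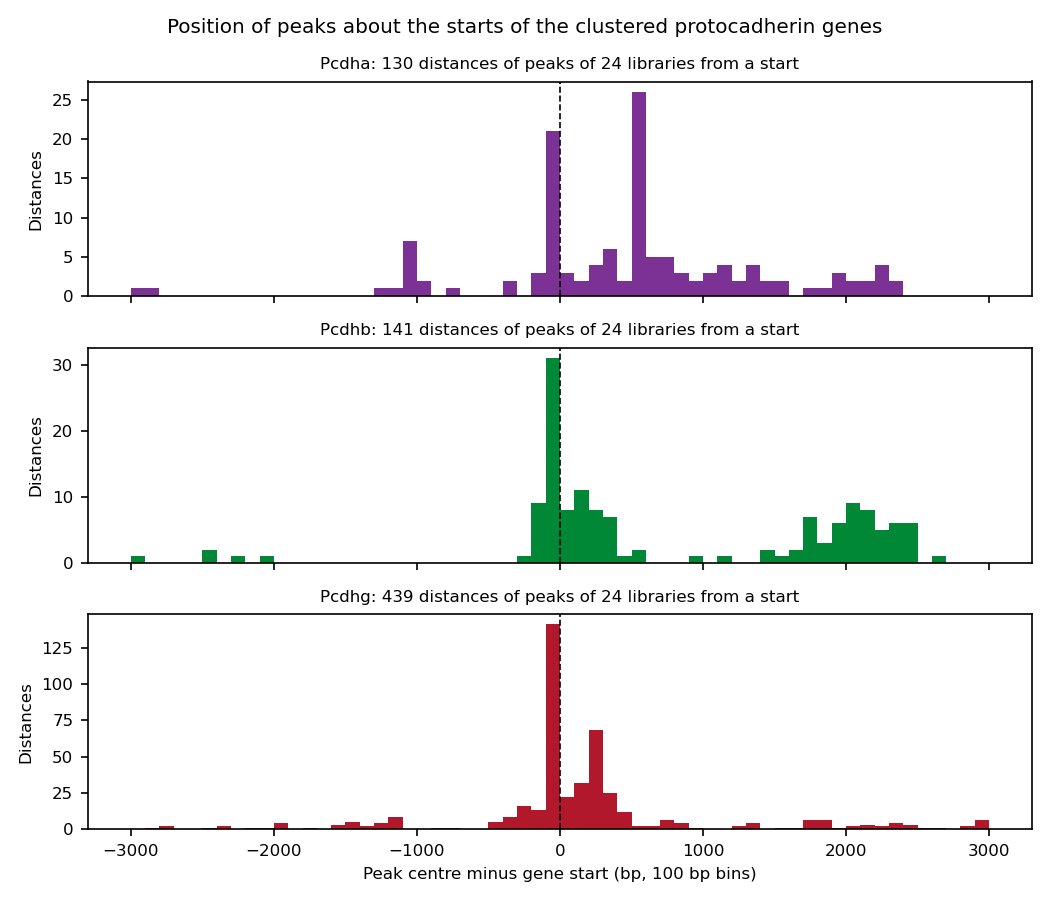
Histograms in bins of 100 bp give the distance of peak centres of the 24 libraries from each member start within 3000 bp, 130 distances in Pcdha, 141 in Pcdhb and 439 in Pcdhg, where a peak near 2 starts counts at each. Besides the bin just before the start (21, 31 and 141 peaks), Pcdha has its highest bin 500 to 600 bp after it (26 peaks), Pcdhb a broad group from 1700 to 2500 bp (50 peaks) and Pcdhg one at 200 to 300 bp (68 peaks).

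CTCF, the factor that loops promoters of these clusters to their enhancers, was searched as a 12-letter consensus on both strands. In the 3000 bp after the start 19 of the 57 members (33.3%) held a match, against 2.04% of all protein-coding genes. In Pcdha 6 of 14 genes held one, all 543 to 587 bp after the start (median 573), and in Pcdhb 13 of 22, all 2277 to 2816 bp after it (median 2393), and in Pcdhg none of 21. The exons are related copies, so these matches are not independent of each other. The 1001 bp about the start held no match in the 57 members, against 1.03% of all genes, and with 1 mismatch allowed 5.26% against 11.9%. Over 57 members, no match cannot be told apart from a share of 1.03%. A strict consensus can miss sites, so a missing match, also in Pcdhg, does not show that a CTCF site is absent.

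The match in Pcdha coincides with the second group of peaks. Pcdha7 had 12 peaks over its match, in 10 libraries, and Pcdha8 had 11, also in 10, and the elements there (36974248 to 36974490 and 36992826 to 36993078, both on chromosome 18) were called in LSK, CMP, GMP, MEP and CFUMK and in no other type. Pcdha4 had 2 peaks over its match and Pcdha6 had 1, whereas Pcdha1 and Pcdha12 had none. In Pcdhb 4 of 13 matches had a peak, 4 at Pcdhb3, 3 at Pcdhb14, 2 at Pcdhb10 and 1 at Pcdhb5. Of the 54 cluster elements 4 held a match (7.41%, exact 95% interval 2.06% to 17.9%), at Pcdha7, Pcdha8, Pcdhb3 and Pcdhb14, and the share over the genome, 3.33%, lay inside that interval. With 1 mismatch allowed the cluster share was 9.26%, below the genome share of 12.8%, which lay inside the exact 95% interval. With elements of either library the cluster share was 4.19%, and the genome share of 1.41% lay below the interval. In the 200 bp about the element centre it was 7.41%, and the genome share of 2.9% lay inside the interval. The comparison with the genome therefore depended on the setting. A match is no evidence that CTCF was bound, and the intervals cover counting error only.

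The promoters themselves, 1001 bp about the start, had a median GC content of 44.9% (33.8% to 58.0%), against 54.7% over all genes. Their ratio of observed to expected CpG was close to that of all genes, 0.564 against 0.552 in the median, and was 0.682 in Pcdha, 0.594 in Pcdhg and 0.378 in Pcdhb. The 43 members accessible in any library had a median of 0.577 and the 14 accessible in none 0.427. In the share of 30 bp words found again elsewhere they had medians of 0.72% and 14.8%, and 20 of the 57 members were above 10%, 12 of them in Pcdha. Whether reads lost or shared between copies, or the CpG content, contribute to the missing calls was not tested.

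For tests along the lineages, the peaks in each gene body and 20 kb on either side were counted and fitted in limma for the 17047 genes whose mean was 3 peaks or more, with Benjamini-Hochberg adjustment over all of them. The difference is in log2 of peaks plus 1 per 100000 called peaks. Of the 57 members 33 were tested, 12 of Pcdha and 21 of Pcdhg. The Pcdha genes reached the mean mainly through peaks in the 6 types. That they are higher there, or lower in steps from those types to the 4 types, is therefore partly set by this minimum. No Pcdhb gene reached the mean, nor did Pcdhac1 and Pcdhac2. The genes of a cluster end together, so that their windows share most peaks and the 33 values are not independent.

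Between the 6 and the 4 types 27 of the 33 tested members were higher and none was lower, where 15.3% of all tested genes were higher. Pcdha8 had window counts of 19 and 18 in LSK, 18 and 8 in GMP, 10 and 5 in CMP, 10 and 6 in CFUMK, 5 and 3 in MEP, and 0 and 1 in iMK. In the 4 types Pcdha8 had 3 and 3 in MON, 4 and 0 in NEU, 1 and 0 in CFUE and 0 and 0 in ERY. The groups overlapped, and the difference for Pcdha8 was 1.19 ± 0.24 (SE, limma adjusted p = 6.84e-05). Pcdha6 followed with 1.15 ± 0.24, Pcdha7 with 1.13 ± 0.24 and Pcdha4 with 1.12 ± 0.24. Pcdhga1 had 0.36 ± 0.10 (limma adjusted p = 0.00179), and the C-type genes Pcdhgc3, Pcdhgc4 and Pcdhgc5 had 0.08, 0.04 and 0.04 and were not called. The median over the 33 was 0.49 and over all tested genes -0.26. Leaving out iMK gave 27 higher members and leaving out NEU 24, alternatives added after seeing the data. With windows of 5 kb about the starts 8 of 26 tested members were called, 6 higher and 2 lower. The share over all genes at that setting is not set beside this count, so it is not read as a result about the members.

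From MEP to CFUE and ERY 8 of the 33 were lower, where 8.12% of all tested genes were, and their median was -0.46 against 0.25 for all genes. All 8 were Pcdha genes (Pcdha1 to Pcdha8). Pcdha4 had 6 and 3 peaks in MEP, 1 and 0 in CFUE and 0 and 0 in ERY, with no overlap, and a difference of -1.57 ± 0.45 (SE, limma adjusted p = 0.0133), which was the same for Pcdha5, Pcdha6 and Pcdha7. At counts this low the size depends on the 1 peak added, and without MEP replicate 1 none of the members was called, 5 without MEP replicate 2 or ERY replicate 2, 4 without CFUE replicate 2, and 15 without either NEU library.

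From GMP to MON and NEU 23 of the 33 were lower, where 8.28% of all tested genes were, with a median of -0.87 against 0.24. Of the 12 tested Pcdha genes 4 were called, Pcdha8 (-1.37, limma adjusted p = 0.0248), the 2 genes named Pcdha11 (-1.35 for ENSMUSG00000102206, -1.25 for ENSMUSG00000007440) and Pcdha9 (-1.25). Pcdha8 and the Pcdha11 of ENSMUSG00000102206 lost the call without either GMP library, MON replicate 1 or NEU replicate 2 (-0.88 and -0.86 without the last). Pcdha9 and the Pcdha11 of ENSMUSG00000007440 lost it in 14 of the 24 omissions of 1 library, namely of both LSK, GMP, CFUMK, MON and all cell line libraries, CMP replicate 1 and NEU replicate 2, with differences from -1.74 to -0.76 over the 24. The other 19 were Pcdhg genes, Pcdhga1 with -0.71 ± 0.18 (limma adjusted p = 0.00519) and Pcdhgc3 with -0.74 ± 0.25 (limma adjusted p = 0.0271) among them. The window of Pcdhga1 held 63 and 41 peaks in GMP, 26 and 22 in MON and 17 and 10 in NEU, with no overlap. Without NEU 10 members were called, without GMP replicate 2 12, and without GMP replicate 1 none.

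No member was called from CMP to MEP, where 4.02% of all tested genes were in either direction, from MEP to CFUMK and iMK (9.47%), or from G1E to G1E-ER4+E2 (10.8%). At an unadjusted p under 0.05 there were 0, 7 and 0 members in these comparisons. With equal numbers of peaks 18 of 21 tested members were lower in CFUMK and iMK than in MEP. Of all 11735 genes tested there 3350 were called in either direction. The share of all genes that were lower is not set beside the 18, so that count is given as a description.

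**Figure D5:**
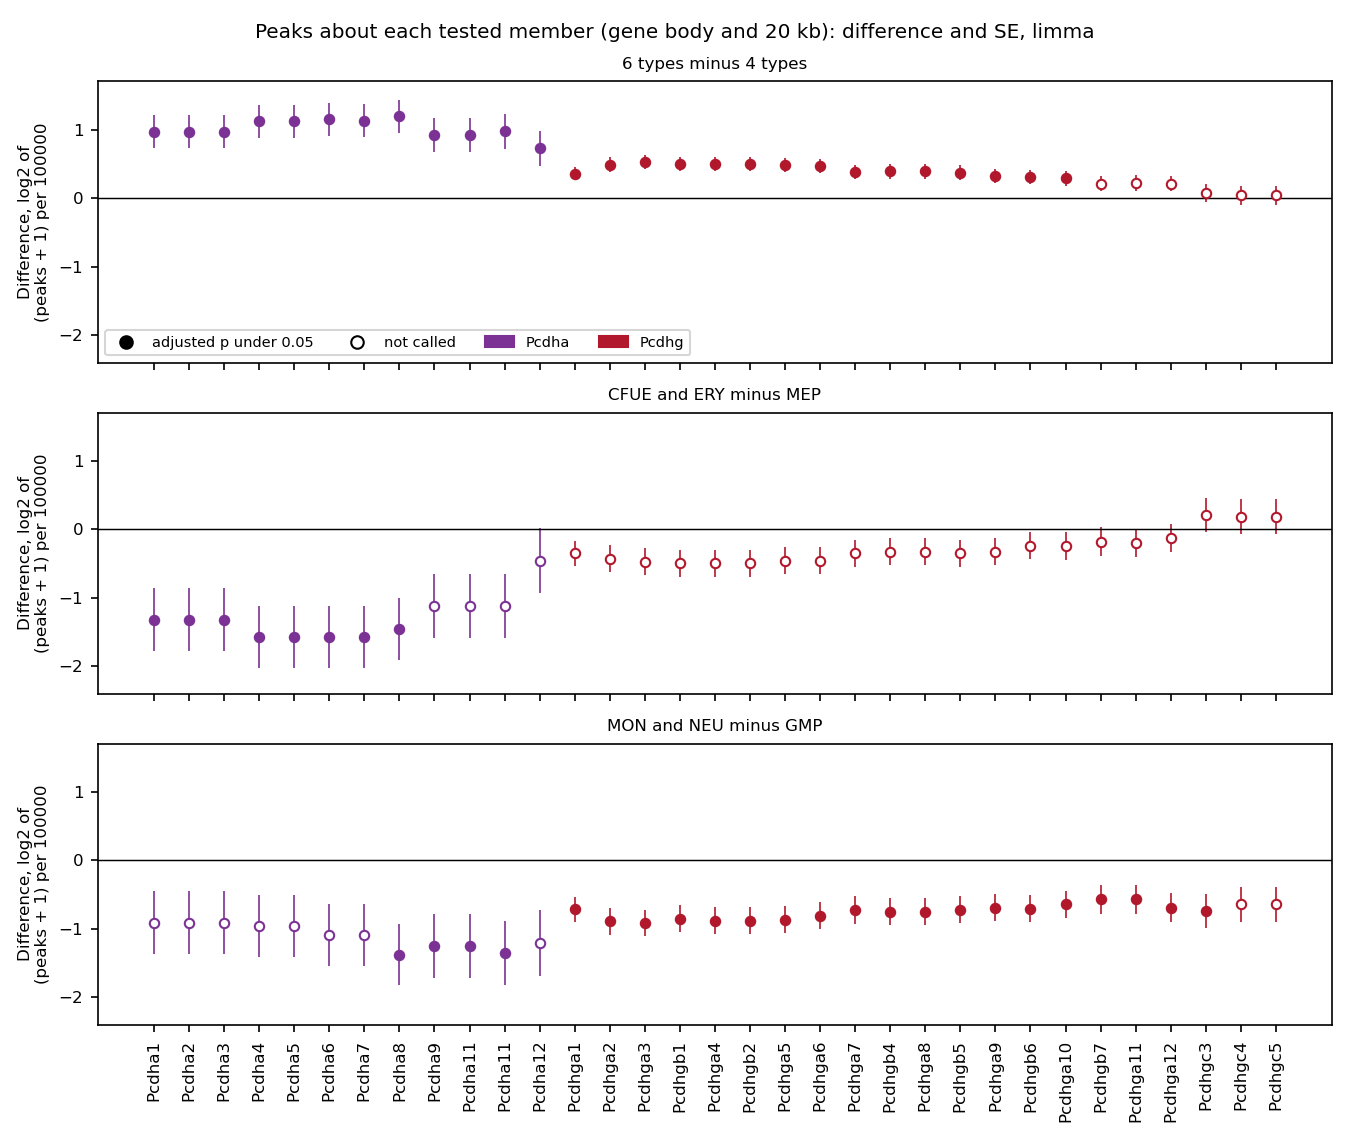
Each point is the limma difference in log2 of peaks plus 1 per 100000 called peaks in the window of 1 of the 33 tested members, with its SE as a bar, filled where the adjusted p is under 0.05, for 3 comparisons. Pcdha genes show the larger differences between the 6 and the 4 types (up to 1.19) and Pcdhgc3 to Pcdhgc5 lie at 0.04 to 0.08, while in the step from GMP to MON and NEU all 33 lie below 0.

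Fixed bins of 50 kb, which share no peaks, gave the same comparison without overlapping windows. Only 8 of the 23 bins of the region reached the mean of 3 peaks, and none of these lies in Pcdha or Pcdhb. Between the 6 and the 4 types 3 of the 8 bins were higher, where 27.4% of all bins were, and 3 lower, where 28.8% were. Both counts are near the background. The 3 higher bins hold the starts of Pcdhga1 to Pcdhga5 (0.82 ± 0.22), Pcdhga6 to Pcdhga10 (0.86 ± 0.22) and Pcdhgb7 to Pcdhga12 (0.75 ± 0.23, SE, limma adjusted p 0.00127 to 0.00614). The bin of Pcdhgc3 to Pcdhgc5 had 0.16 ± 0.14 and was not called. The 3 lower bins lay outside the clusters, 1 at Taf7, 1 in Diaph1 and 1 that begins upstream of the region and whose peaks lay mostly outside it.

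In the bins from MEP to CFUE and ERY 2 were lower, where 14.4% of all bins were, namely those of Pcdhga6 to Pcdhga10 (-1.11 ± 0.41) and Pcdhgb7 to Pcdhga12 (-1.34 ± 0.43), and the bin of the C-type genes had 0.11 ± 0.27. Neither was called without MEP replicate 2, CFUE replicate 2 or ERY replicate 2, and 1 was called without MEP replicate 1 or any 1 library of CMP, GMP, CFUMK, iMK or the lines, or without LSK replicate 1. From GMP to MON and NEU 2 were lower, where 13.4% were, Pcdhga1 to Pcdhga5 (-1.29 ± 0.42) and Pcdhgc3 to Pcdhgc5 (-0.87 ± 0.27), and the bin that begins upstream of the region was higher, where 11.4% were. The C-type bin was thus called in the innate and not in the erythroid comparison, a difference between comparisons that was not tested. No bin of the region was called from CMP to MEP (7.97% of all bins), from MEP to CFUMK and iMK (15.1%) or from G1E to G1E-ER4+E2 (9.35%), with 1 in each at an unadjusted p under 0.05. Leaving out either GMP library left none of the innate calls in the bins. With 8 tested bins, counts of 2 lower or 1 higher are too few to be told apart from the shares of all bins.

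Genes around and beyond the clusters gave other patterns. Of the 7 neighbouring protein-coding genes, Taf7, Diaph1 and Hdac3, a histone deacetylase, were accessible in all 24 libraries, Slc25a2, a mitochondrial carrier, in 1, and the unnamed models Gm42416, Gm37013 and Gm37388, which run through the clusters, in 2, 1 and 1. Of 16 genes known to act on protocadherin choice or silencing, 13 were accessible in all 24 libraries, among them Ctcf, the cohesin gene Rad21 and the silencing factor Smchd1. Dnmt3a and Dnmt3b, the DNA methyltransferases that set new methylation, were accessible in the 20 primary libraries and in none of the lines, and Zfp143 in 2. Between the 6 and the 4 types 2 of 15 tested regulators were higher and 8 lower, with a median of -0.44, among them Smchd1 (-0.76 ± 0.12) and Ctcf (-0.59 ± 0.12). Of all tested genes 43.5% were lower, with a median of -0.26, so that 8 of 15 is near the background.

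Of 12 protocadherin genes outside the clusters, 10 were accessible somewhere, from Pcdh7 in 23 libraries, Pcdh17 in 20 and Pcdh1 in 19 down to Pcdh18 and Pcdh20 in 7 each. Pcdh8 was accessible in the same 10 libraries as Pcdhac1, both of LSK, CMP, GMP, MEP and CFUMK. Pcdh10 and Pcdh19 were accessible in all 12 libraries of the 6 types and in CFUE replicate 1. In the gene windows 4 of 8 tested genes were higher in the 6 types (15.3% of all genes were) and 1 lower, with Pcdh19 at 2.23 ± 0.21 and Pcdh7 at 1.20 ± 0.11 (SE). Pcdh12 and Pcdh11x were accessible in no library.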

How the data were processed

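The authors trimmed reads to 30 bp, aligned them to mm10 with Bowtie 0.12.8, processed them with SAMtools 1.6 and bedtools, and called peaks per library with HOMER (study methods, with versions from the submitters' notes). The methods allow reads to map to intervals present in several copies. The authors deposited 24 lists, each with a score per peak of unstated unit, and scores were used only to rank peaks within a list. Read counts were not used and depth is known only as list length.

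Groups follow the labels. Replicates came from separate mice or separate aliquots of the same mice, and p-values cover no more than the spread of these libraries, which may be technical. The members and gene lists were chosen with earlier results of these data known. Named were the 5 C-type members, the 10 other members accessible in the most libraries, cluster ends, the 4 largest called differences per direction and the 10 elements called in the most types, and others were chosen after their values were seen. Elements merge peaks overlapping by 1 bp in both libraries. Type means were compared by exact permutation, and windows (prior 1 peak) with limma 3.58.1 in R 4.3.3 (trend, robust, two-sided, threshold 0.05), tested on simulated data. Other steps used Python 3.11.15 (scipy 1.17.1, numpy 2.4.6, matplotlib 3.10.9, pandas 2.3.3). Some marker genes are not reported here, and their lists were counted without them.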

Additional observations from a re-analysis of the deposited data

Results flagged for a closer look

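Among the 6 types, iMK stood apart in the peaks of the Pcdhg cluster, with 10.3 peaks per 100000 called peaks where the 6 types ran from 10.3 to 20.9, and its gap to the next type was 0.632 of that range. This was 1 of 10 groups of type means examined, and chance marks about 1 group in 20.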

How the results depend on the processing

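The difference of 16.3 accessible members between the 6 and the 4 types kept its direction under every alternative run, from 15.1 to 17.6 when 1 library was left out, 15.4 and 16.7 with windows of 250 and 1000 bp, 18.75 without iMK and 16.9 without NEU. It was far smaller with equal numbers of peaks, as given above, and the groups then overlapped. It was 17.55 in the 7 types whose library numbers run together and 20.9 in the libraries numbered 842 to 848 (exact permutation test, p = 0.0952 in both, where 5 against 2 allows 0.0476), and 14.2 in those numbered 850 to 856 (p = 0.0476). As the share of members accessible divided by the share of all genes accessible in the same library, an alternative chosen after seeing the data, it was 0.552 against 0.137 (exact permutation test, p = 0.0143). The difference of 10.9 peaks per 100000 was 10.0 to 11.8 with 1 library left out and lost the call without ERY replicate 2, CFUMK replicate 1, iMK replicate 2 or MON replicate 1 (p up to 0.0762), without NEU (10.3), in the 7 types (9.71), in libraries 842 to 848 (11.4) and 850 to 856 (8.07), and with equal numbers of peaks (4.69). By cluster, Pcdhb turned to -0.148 with equal numbers of peaks, and Pcdhg passed without iMK (6.89) and without scaling (19.3). With 1 library left out Pcdha ran from 2.76 to 3.68, Pcdhb from 2.02 to 3.27 and Pcdhg from 4.70 to 6.27. Calls among members in the gene windows were 26 to 30 between the 6 and 4 types with 1 library left out and 8 in 5 kb about the starts, 2 from CMP to MEP both with no minimum and in 5 kb, 0 to 15 from MEP to CFUE and ERY with 1 library left out, 15 there with equal numbers and 4 in 5 kb, 18 and 3 from MEP to CFUMK and iMK with equal numbers and in 5 kb, and 0 to 30 from GMP to MON and NEU with 1 library left out, 4 in 5 kb and 10 without NEU. Bins called were 2 with equal numbers and 17 with no minimum between the 6 and 4 types, 2 with no minimum and 1 in 25 kb bins from CMP to MEP, 0 to 2 with 1 library left out and 1 with equal numbers from MEP to CFUE and ERY, 1 under each of equal numbers, no minimum and 25 kb bins from MEP to CFUMK and iMK, and 0 to 4 with 1 library left out, 1 with equal numbers, 14 with no minimum and 5 in 25 kb bins from GMP to MON and NEU. Leaving out iMK or NEU between the 6 and the 4 types, added after seeing the data, gave 27 and 24 members and 6 and 5 bins. Where a type was down to a single library, its spread was taken from the other types. The cause of these changes was not tested. Shares over all genes or bins at the same settings are not set beside these counts of calls. The counts therefore show only how far the calls moved. Of 329 alternative values for named members in the gene windows 276 kept their call, 53 lost it and 0 changed sign, and of 72 counts of libraries 57 moved by less than the spread and 15 by more. List length limits what can be seen, most of all in the cell lines.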
